A study of Rattus norvegicus with 4 samples.

Results

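In cultured rat oligodendrocytes, 3334 acetylated regions were found in vehicle and had no acetylation peak after the demyelinating lipid lysolecithin (LPC). They were chosen from the 2 lists of H3K27Ac peaks, 1 from vehicle and 1 from LPC. The peaks of both lists were pooled, peaks at most 1 kb apart were joined, and joined regions on the autosomes that held vehicle peaks only were kept. Of the 29950 joined autosomal regions, 3334 (11.1%) were vehicle-only, 20809 held peaks of both conditions (shared regions below) and 5807 (19.4%) were LPC-only. The vehicle-only regions were then divided by whether an LPC H3K27Ac peak lay within 12.5 kb, edge to edge. With such a peak there were 1562 regions, called near below, and without one 1772 (53.1%, 95% interval 51.4 to 54.9), called isolated. Presence in the H3K27Ac lists chose these regions, so their acetylation is described and not tested, and the comparisons below use the Olig2 lists, which played no part in the choice.

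The study comprised 4 ChIP-seq libraries: H3K27Ac in vehicle, H3K27Ac in LPC, Olig2 in vehicle and Olig2 in LPC. Mixed glia of rat brain were grown in serum for 5 to 7 days and kept for 2 days in medium conditioned by B104 cells. Oligodendrocyte precursors were then isolated from them, expanded in Sato medium with PDGF-AA at 10 ng/ml and bFGF at 20 ng/ml, and then differentiated by 15 nM T3 (a thyroid hormone) together with 10 ng/ml ciliary neurotrophic factor. They then received vehicle, or LPC for 6 h. The labels give the LPC dose as 12.5 mM, and whether millimolar was meant was not established here. The labels do not say how many animals or cultures went into a library, and the name of the cells was not checked against marker genes, since peaks were not assigned to genes here.

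H3K27Ac is an acetyl mark on histone H3 that the acetyltransferases CBP and p300 place at active promoters and enhancers and that histone deacetylases remove. Olig2 is a basic helix-loop-helix transcription factor that specifies the oligodendrocyte lineage and binds E-box motifs in its promoters and enhancers. LPC is a detergent-like lipid that is injected into white matter to strip myelin, and in culture it acts directly on the membranes of oligodendrocytes.

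The vehicle H3K27Ac list held 38902 peaks over 34.4 Mb and the LPC list 38721 peaks over 41.7 Mb. The Olig2 lists held 4965 peaks in vehicle and 3229 in LPC. The lists give positions only, so depth is unknown and a peak missing from a list may have lain just under its threshold. Each condition was a single library per antibody, so no difference between vehicle and LPC has a replicate check. Fewer cells with an acetylated site and less acetylation per cell cannot be told apart in such bulk material. Intervals are 95% intervals that cover counting error only and treat neighbouring regions as independent.

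The vehicle-only regions were short and mostly made of 1 peak. They spanned a median of 486 bp (quartiles 410 and 598 bp), from 208 to 3920 bp, while shared regions spanned a median of 1685 bp and LPC-only regions 562 bp. One peak made up 3165 of them (94.9%), 161 held 2 peaks and 8 held 3. Only 210 spanned 1000 bp or more (6.30%), against 15.8% of LPC-only and 83.3% of shared regions. Together they held 3511 of the 38135 autosomal vehicle peaks (9.21%) and 5.34% of the length those peaks covered. Isolated and near regions were of like size, with median spans of 481.5 and 493.5 bp.

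Vehicle-only regions lay from next to LPC acetylation to far from it. The distance to the nearest LPC H3K27Ac peak had a median of 14.2 kb, with quartiles of 5.15 and 41.0 kb and a highest value of 1947 kb. In the nearest class, 260 regions lay between 1 and 2 kb from an LPC peak, and at the far end 390 lay over 100 kb away. The distribution had no break at 12.5 kb: 63 regions lay 11.5 to 12.5 kb from an LPC peak, with a median span of 495 bp, and 78 lay 12.5 to 13.5 kb away, with a median of 499.5 bp. At the joining limit, 363 autosomal vehicle peaks lay over 0.5 and up to 1 kb from an LPC peak and so belonged to shared regions, with a median length of 495 bp. A further 196 lay over 1 and up to 1.5 kb away, with a median of 487.5 bp. Vehicle peaks on the 2 sides of the joining limit were therefore of like length, as were vehicle-only regions on the 2 sides of 12.5 kb. The joined regions that held those peaks were not compared. The 3 regions closest to the joining limit were chr18:31075533-31076096, chr16:18482990-18483300 and chr11:58688974-58689797, with the nearest LPC peak 1004, 1009 and 1010 bp away. None of these 3 carried Olig2, and the shared region next to the one on chromosome 11 carried it in both conditions.

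**Figure D1:**
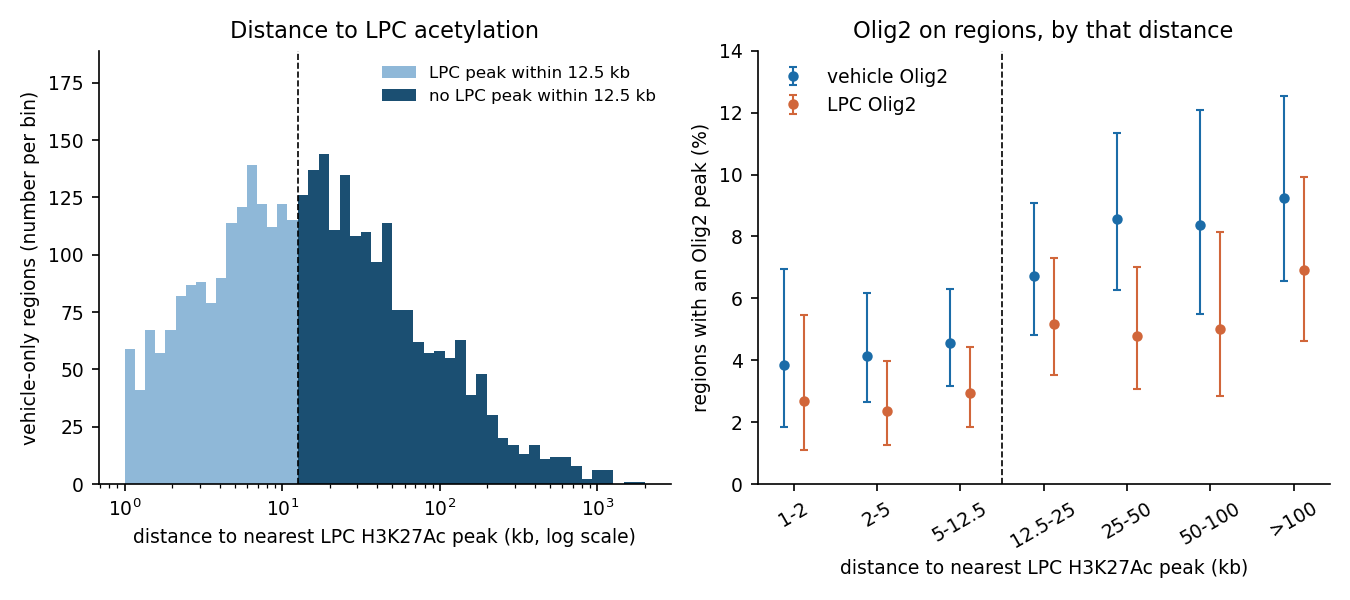
Left, number of vehicle-only regions per bin of distance to the nearest LPC H3K27Ac peak (kb, log scale), with the 12.5 kb limit dashed and a median of 14.2 kb. Right, percent of regions with an Olig2 peak in each class of that distance (kb), for the vehicle and the LPC Olig2 list, with 95% exact binomial intervals. The vehicle value goes from 3.85% at 1 to 2 kb to 9.23% beyond 100 kb.

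For 1258 of the 1562 near regions (80.5%, 78.5 to 82.5) the nearest LPC peak lay in a shared region, at a median distance of 4.76 kb, and for 304 it lay in an LPC-only region. Of all 26616 autosomal regions that held LPC peaks, 78.2% were shared, so the share among neighbours was close to that background. LPC peaks lay within 12.5 kb on both sides in 356 near regions (22.8%) and on one side in 1206. The 1201 shared regions that were nearest neighbours in this sense spanned a median of 1854 bp, and the other 19608 shared regions 1676 bp. The covered length was greater in the LPC list than in the vehicle list in 69.1% of the neighbours and in 71.9% of the other shared regions, so the neighbouring acetylation was as a rule not shorter in the LPC list. Of the 1772 isolated regions, 139 (7.84%) had another vehicle-only region within 12.5 kb.

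The longest vehicle-only region was a single 3920 bp peak on chromosome 4 (75900388 to 75904307 on build rn4), 2.15 kb from an LPC peak. No Olig2 peak touched it, and the nearest vehicle Olig2 peak was 341 kb away. The shared region next to it carried Olig2 in LPC and not in vehicle. That shared region was covered over 1399 bp by vehicle peaks and over 3198 bp by LPC peaks, so acetylation there was longer in LPC while the 3920 bp peak was absent. The other long near regions were broken into several peaks. On chromosome 2 a near region (55902773 to 55905263) held 3 peaks over 2491 bp. Regions on chromosome 14 (3101677 to 3104095, spanning 2419 bp) and on chromosome 13 (75190220 to 75192577, spanning 2358 bp) held 3 peaks as well. The one on chromosome 1 (170754730 to 170757009) held 2 peaks, of 1262 and 267 bp, and lay 1.11 kb from a 458 bp LPC-only region. Beside these, the regions of most peaks included 3-peak regions on chromosome 1 (85958256 to 85960321) and chromosome 3 (8655784 to 8657672). None of these near regions overlapped Olig2 in vehicle or in LPC.

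The longest isolated regions held 2 or 3 vehicle peaks each. On chromosome 4 there were 2, of 2196 bp (126091795 to 126093990) and 1873 bp (96444361 to 96446233). The other three were on chromosome 9, with 2115 bp (92791104 to 92793218), on chromosome 7, with 1830 bp (129420619 to 129422448), and on chromosome 5, with 1811 bp (26891389 to 26893199). Their distances to the nearest LPC H3K27Ac peak ran from 15.1 kb for the chromosome 7 region to 470 kb for the chromosome 5 region. Only the chromosome 7 region carried Olig2, with a vehicle peak of 928 bp and an LPC peak of 900 bp, both lying wholly inside it.

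Olig2 lay on a small share of the vehicle-only regions, and that share was lower than on shared regions and higher than on LPC-only regions. A vehicle Olig2 peak overlapped 210 of the 3334 regions (6.30%, 5.50 to 7.18) by at least 1 bp, where 10.4% of all joined regions did. An LPC Olig2 peak overlapped 138 (4.14%, 3.49 to 4.87), where 6.88% of all joined regions did. Shared regions carried vehicle Olig2 in 12.8% (12.4 to 13.3) and LPC Olig2 in 8.53%. The difference, vehicle-only minus shared, was -6.51 percentage points (-7.41 to -5.52) in the vehicle Olig2 list and -4.39 points (-5.12 to -3.57) in the LPC list.

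Region length moved with this difference. Among regions in which vehicle peaks covered at most 642 bp, vehicle Olig2 lay on 144 of 2666 vehicle-only regions (5.40%) and on 268 of 4305 shared regions (6.23%), a difference of -0.824 points (-1.93 to 0.325). Within 5 bins of covered length the difference was -1.44 points (-2.45 to -0.421), but in the longest bin the shared regions had a median covered length of 1472 bp and the vehicle-only ones 805.5 bp. With 10 bins it was -0.640 points (-1.66 to 0.377). With bins of span it was -1.53 points (-3.60 to 0.543). Whether a difference from shared regions was resolved at like covered length thus depended on the bins when all vehicle-only regions were pooled. Covered length does not match the span over which Olig2 was counted. Vehicle peaks covered 32016 of the 42801 kb that shared regions spanned, and 859 of 879 kb in near regions. Near regions taken by themselves carried vehicle Olig2 less often than shared regions in each of 5 bins of covered length. The difference was -3.54 points (-4.70 to -2.38), and -2.74 points (-3.90 to -1.58) with 10 bins. It was not computed in bins of span, so the part of the longer span of shared regions was not tested. In the LPC Olig2 list the 5 bins gave -2.44 points (-3.37 to -1.50). For isolated regions the difference from shared regions within 5 bins of covered length was 0.388 points (-1.01 to 1.79) in vehicle. In the LPC Olig2 list it was 0.352 points (-0.811 to 1.51). With 10 bins these were 1.15 points (-0.248 to 2.55) and 0.893 points (-0.271 to 2.06). None was resolved from 0, and bins of span were not computed for isolated regions either.

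The contrast with LPC-only regions went the other way and was not smaller at like length. LPC-only regions carried vehicle Olig2 in 229 of 5807 cases (3.94%, 3.46 to 4.48), 2.36 points (1.41 to 3.35) less often than vehicle-only regions. Within 5 bins of span the difference was 2.87 points (1.92 to 3.82). It had the same sign in the Olig2 list of the LPC-treated cells, where 4.14% of vehicle-only and 2.55% of LPC-only regions carried a peak, a difference of 1.59 points (0.827 to 2.41). LPC Olig2 peaks were found more often where acetylation peaks were present in vehicle alone than where they were present in LPC alone. When 50% of the Olig2 peak had to lie inside the region, which few regions under 500 bp allow, the difference in the vehicle list was 0.294 points (-0.343 to 0.982).

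**Figure D2:**
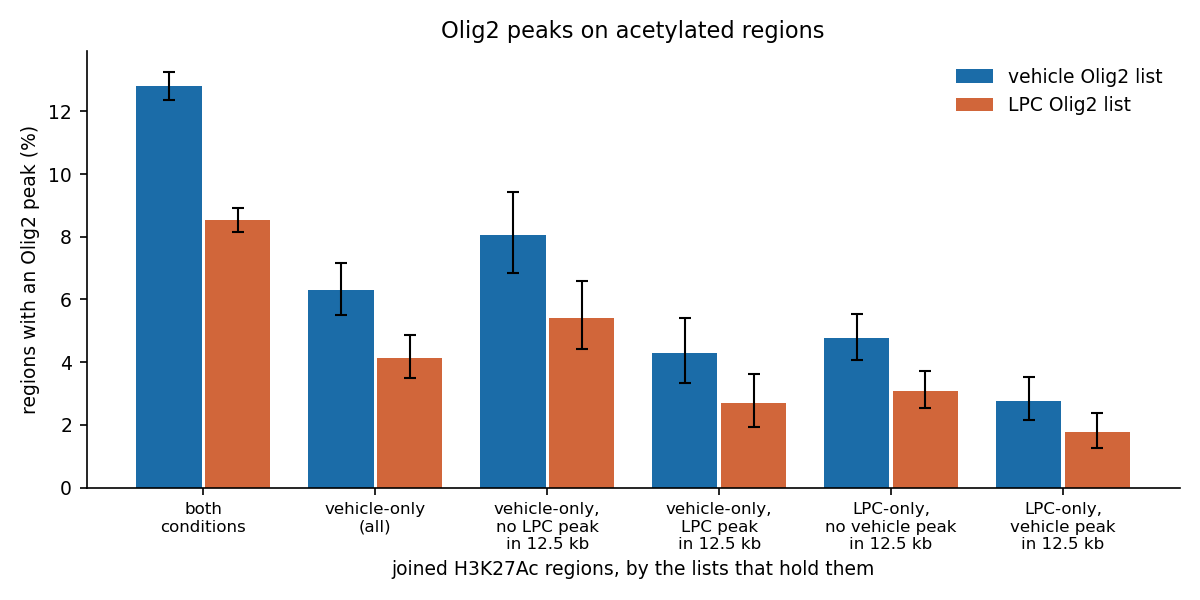
Percent of joined H3K27Ac regions with an Olig2 peak, by class of region, in the vehicle and the LPC Olig2 list. Bars start at 0 and error bars are 95% exact binomial intervals. Isolated vehicle-only regions stand at 8.07% and near ones at 4.29% in the vehicle list.

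Isolated vehicle-only regions carried Olig2 more often than near ones. Vehicle Olig2 lay on 143 of 1772 isolated regions (8.07%, 6.84 to 9.44) and on 67 of 1562 near ones (4.29%, 3.34 to 5.42), a difference of 3.78 points (2.15 to 5.41). Within 5 bins of covered length it was 3.87 points (2.26 to 5.47). LPC Olig2 gave 5.42% and 2.69%, a difference of 2.73 points (1.39 to 4.07). By distance, vehicle Olig2 lay on 3.85% of regions 1 to 2 kb from an LPC peak, 4.55% at 5 to 12.5 kb, 6.72% at 12.5 to 25 kb and 9.23% beyond 100 kb. None of the 6 differences between neighbouring classes of distance was resolved from 0; the largest was 2.18 points (-0.300 to 4.84), from 5 to 12.5 kb to 12.5 to 25 kb. Limiting the vehicle list to peaks at or above its median length left 456 vehicle-only regions and a difference of 4.26 points (-1.37 to 10.1), and requiring 50% of the Olig2 peak inside the region left 0.942 points (-0.141 to 2.02).

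Shared regions did not show that contrast when compared with each other at like length. Here a region was called alone when no acetylated region of any class lay within 12.5 kb. Vehicle-only regions that were alone carried vehicle Olig2 in 8.23% and the others in 4.45%, a difference of 3.78 points (2.13 to 5.46). Shared regions gave 11.8% alone and 13.7% otherwise, a difference of -1.91 points (-2.81 to -0.9999), but those that were alone spanned a median of 1575.5 bp and the others 1807 bp. Within 5 bins of span the shared regions gave 0.191 points (-0.661 to 1.04) and the vehicle-only regions, with median spans of 480 and 494 bp, 3.89 points (2.25 to 5.54). The gap between these was 3.70 points (1.85 to 5.55), and 5.68 points (3.80 to 7.57) without regard to length. The bins matched length within each class and not between classes. The gap therefore sets short vehicle-only regions against longer shared ones, and the part of length in it was not tested. LPC-only regions showed the same sign as vehicle-only ones, 4.92% alone and 2.86% otherwise, and the gap to vehicle-only regions of 1.71 points (-0.215 to 3.64) was not resolved from 0, nor was it within 5 bins of span, at 1.78 points (-0.136 to 3.69).

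Olig2 was also counted around the regions and on their neighbours. By the rule, near regions have an LPC-holding region within 12.5 kb and isolated regions have none, so these surroundings differ by construction. Within 12.5 kb of a near region there was a vehicle Olig2 peak in 387 of 1562 cases (24.8%, 22.7 to 26.995), and 4.29% carried one. Around isolated regions the share went from 8.07% on the region to 11.5% (10.1 to 13.1) within 12.5 kb. For shared regions it went from 12.8% to 20.6% (20.0 to 21.1). Shared neighbours spanned a median of 1854 bp and near regions 493.5 bp, and the 2 were not compared at like length. Of the 1201 shared regions next to a near region, 223 (18.6%) carried vehicle Olig2, against 13.1% of the 9896 other shared regions that had some acetylated region within 12.5 kb. That difference was 5.46 points (3.26 to 7.85), and 4.90 points (2.71 to 7.10) within bins of length. Where the shared neighbour carried vehicle Olig2, the near region did so in 15 of 234 cases (6.41%, 3.63 to 10.4). Where it did not, the near region carried Olig2 in 36 of 1024 (3.52%, 2.47 to 4.83). The difference of 2.89 points (0.0819 to 6.91) had a lower limit just above 0, and some of the 234 pairs share a neighbour.

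**Figure D3:**
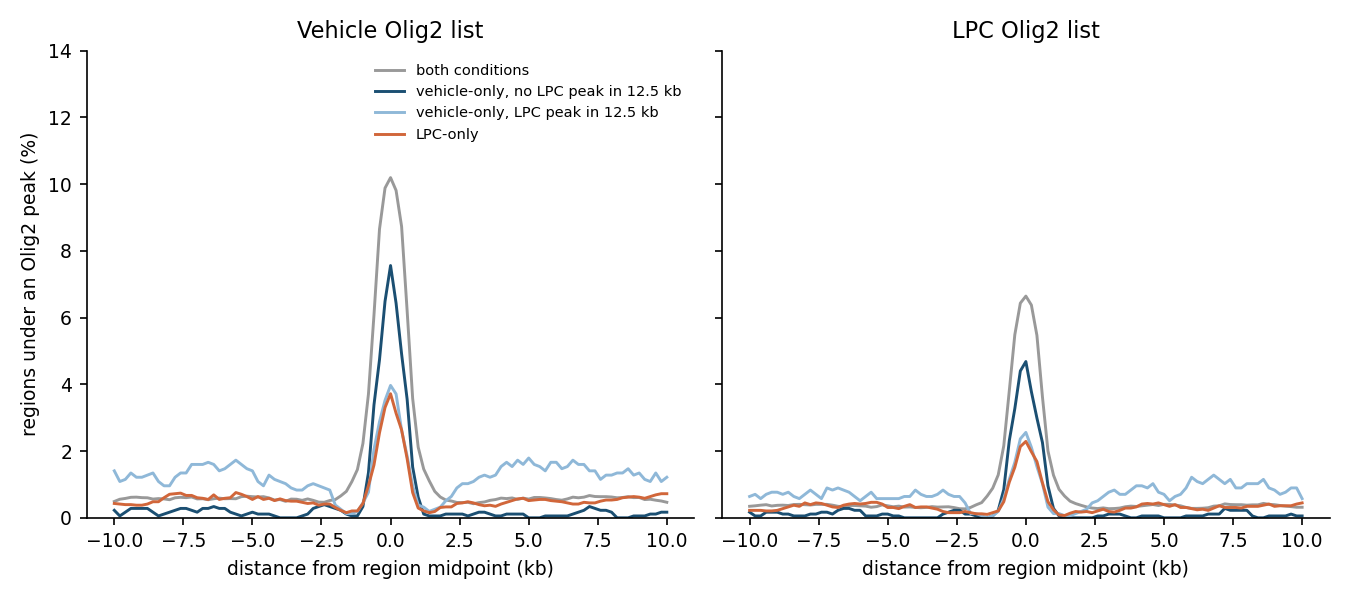
Percent of regions that lie under an Olig2 peak at each distance from the region's midpoint (kb), in the vehicle Olig2 list (left) and the LPC Olig2 list (right), for 4 classes of region. At the midpoint the vehicle value is 7.56% for isolated and 3.97% for near regions, and from 5 to 10 kb out it averages 0.156% and 1.39%.

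The profile of Olig2 peaks around the midpoints gave values on the regions and away from them. The values away from the midpoint are not a separate result. By the rule, only near regions have an LPC-holding region within 12.5 kb. Over isolated regions, vehicle Olig2 peaks covered 7.56% of midpoints and a mean of 0.156% of positions 5 to 10 kb away. Over near regions these values were 3.97% and 1.39%. In the LPC Olig2 list they were 4.68% and 0.111% for isolated and 2.56% and 0.814% for near regions, so the shape was alike in both conditions.

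Counted from 1 bp of overlap, vehicle-only and shared regions showed no resolved difference in how often their vehicle Olig2 peaks were kept. Of the 210 vehicle Olig2 peaks on these regions, 136 (64.8%, 57.9 to 71.2) overlapped an LPC Olig2 peak, and 74 did not. Of all autosomal vehicle Olig2 peaks 64.1% were kept and 35.9% were not. On shared regions 1781 of 2745 (64.9%, 63.1 to 66.7) were kept, a difference of -0.120 points (-7.02 to 6.28). On LPC-only regions 63.8% were kept, and off any acetylated region 62.9%. The interval allows a share up to 7.02 points lower on vehicle-only than on shared regions, so equal shares are not shown. When at least 50% of the Olig2 peak had to lie inside the region, 52.9% were kept on vehicle-only regions, and the difference from shared regions was -12.0 points (-22.6 to -1.56).

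**Figure D4:**
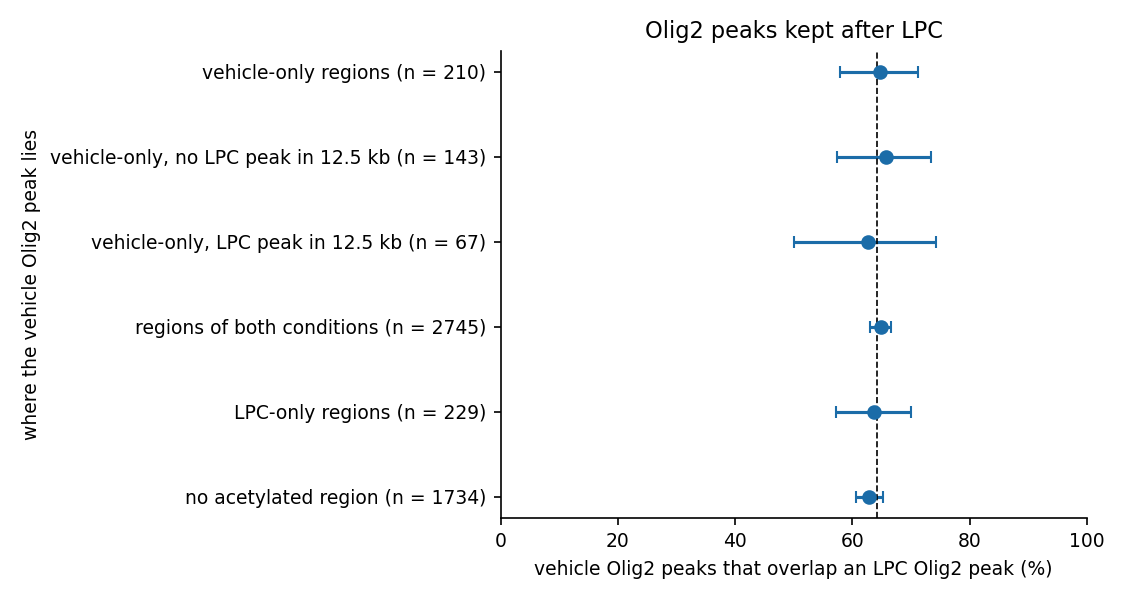
Percent of vehicle Olig2 peaks that overlap an LPC Olig2 peak, by where the vehicle peak lies, with 95% exact binomial intervals and the number of peaks. The dashed line is the value over all autosomal vehicle Olig2 peaks, 64.1%, and every interval spans it.

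Counted by region, Olig2 was present in both lists at 136 vehicle-only regions, in vehicle alone at 74, in LPC alone at 2 and in neither at 3122. Of the 136, 94 were isolated, so an LPC Olig2 peak lay there with no LPC H3K27Ac peak within 12.5 kb. On isolated regions 94 of 143 vehicle Olig2 peaks were kept (65.7%, 57.3 to 73.5) and on near regions 42 of 67 (62.7%, 50.01 to 74.2). The difference of 3.05 points (-10.3 to 17.1) was not resolved. Kept peaks on vehicle-only regions had a median vehicle length of 1043.5 bp and those not kept 948.5 bp. Among the 136 kept peaks, 31 were longer in LPC than in vehicle (22.8%, 16.0 to 30.8), with a median ratio of LPC to vehicle length of 0.924. On shared regions the LPC peak was longer in 30.1% (28.0 to 32.3) of 1778 pairs, with a median ratio of 0.935.

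The 5 longest vehicle-only regions with Olig2 in both lists are given as examples. They were chosen for length, spanning 1268 to 1830 bp against a median of 486 bp over all vehicle-only regions. The isolated region on chromosome 7 named above had H3K27Ac peaks of 622 and 387 bp, with the Olig2 peaks over part of the space between them. On chromosome 1 (29907130 to 29908904) a near region held a vehicle Olig2 peak of 1032 bp and an LPC one of 824 bp, and the nearest LPC H3K27Ac peak was 8.88 kb away. On chromosome 15 (51531671 to 51533096) the Olig2 peaks were of nearly equal length, 950 bp (vehicle) and 961 bp (LPC). A second region of chromosome 1 (189381818 to 189383131) was isolated, 29.2 kb from LPC acetylation, with Olig2 peaks of 1117 and 879 bp. The fifth, on chromosome 13 (95508031 to 95509298), had Olig2 peaks of 877 and 809 bp. In 4 of these 5 the LPC Olig2 peak was the shorter one.

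Of the 5 longest regions with vehicle Olig2 alone, 4 were near regions, while of all 74 such regions 25 were near and 49 isolated. The longest lay on chromosome 4 (75558367 to 75559989), isolated by 76.7 kb, with a vehicle Olig2 peak of 1029 bp. The near ones lay on chromosome 7 (20747116 to 20748682), on chromosome 10 (103427842 to 103429273, and a second one at 82073739 to 82075145) and on chromosome 1 (20440991 to 20442105), and their vehicle Olig2 peaks measured 1169, 825, 1062 and 1326 bp. At the second chromosome 10 region the shared neighbour, 6.16 kb away, carried Olig2 in both conditions. The 2 regions with LPC Olig2 alone were isolated and touched the Olig2 peak at its edge: 170 bp of a 675 bp peak on chromosome 7 (69767728 to 69768253) and 100 bp of an 892 bp peak on chromosome 2 (217142992 to 217143461).

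**Figure D5:**
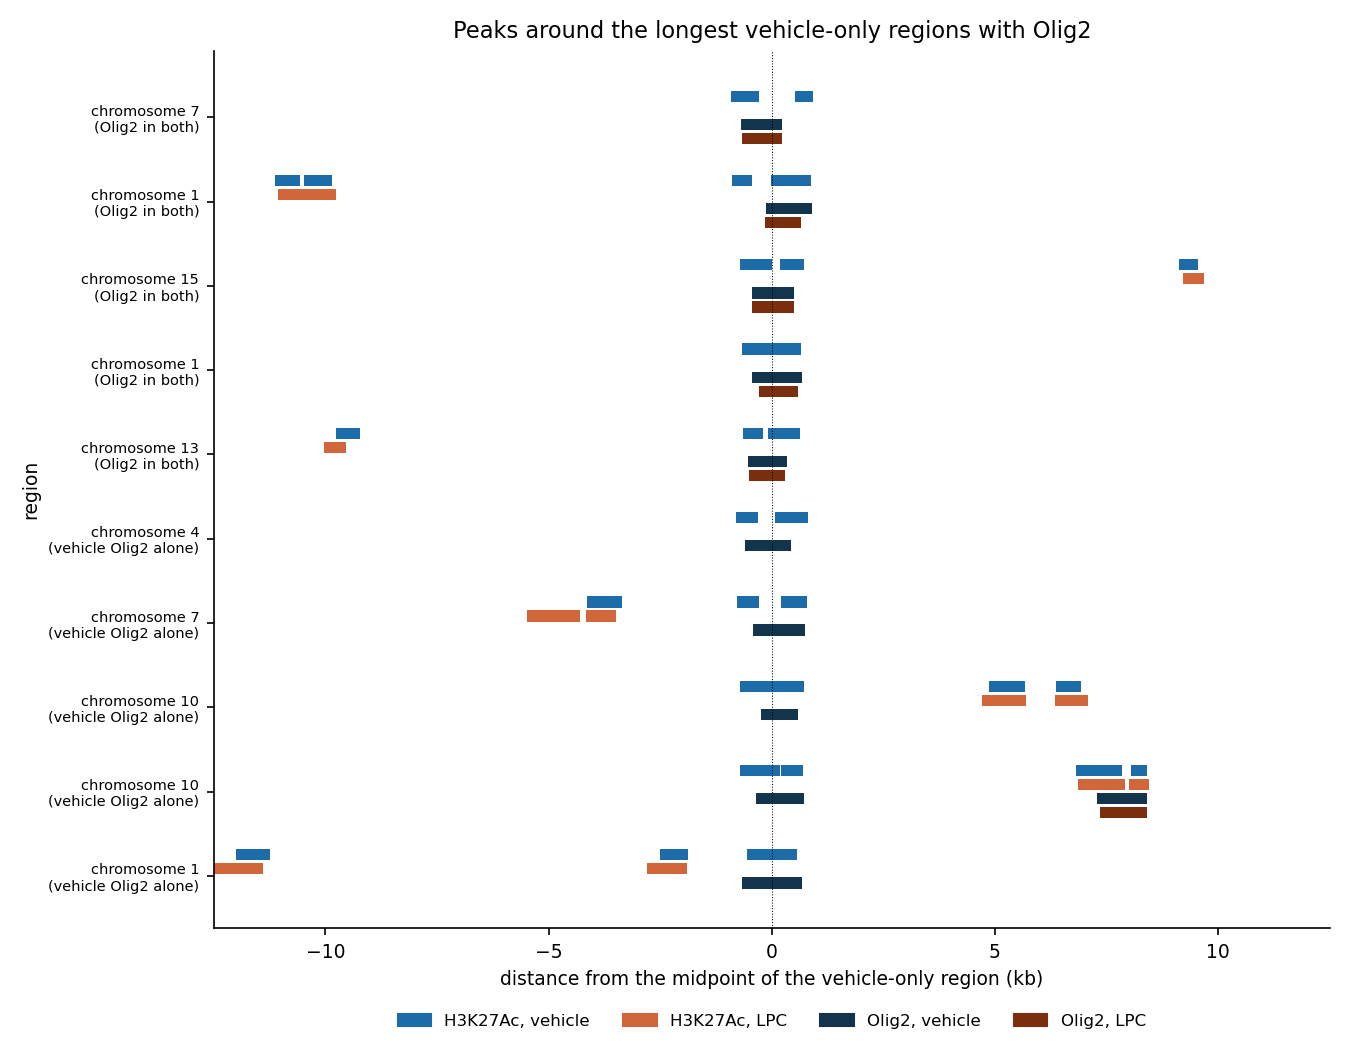
Peaks of the 4 lists around the 10 longest vehicle-only regions with Olig2 (5 with Olig2 in both conditions, 5 with vehicle Olig2 alone), as distance from the region's midpoint (kb), up to 12.5 kb on each side. The vehicle Olig2 peak covers the centre of each row, and in the upper 5 rows the LPC Olig2 peak does too. In some rows the centre falls in a space between vehicle H3K27Ac peaks. LPC H3K27Ac, where present, appears only to the side.

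Where a vehicle-only region carried Olig2, the Olig2 peak was usually the longer of the pair, in 191 of 210 cases (91.0%). Its midpoint lay a median of 226 bp from the region's midpoint, and inside the region in 114 (54.3%, 47.3 to 61.2). In shared regions spanning up to 1 kb the median offset was 237.5 bp and the midpoint was inside in 71.8% (65.2 to 77.9) of 206. The Olig2 peak was the longer of the pair in 83.5% of these. Those shared regions were longer than most vehicle-only ones, and the part of length in this was not tested. The 169 vehicle-only regions of 2 or 3 peaks carried vehicle Olig2 in 18 cases (10.7%, 6.44 to 16.3), against 6.07% (5.26 to 6.96) of those of 1 peak. They spanned a median of 1191 bp against 479 bp. In 10 of the 18 (55.6%, 30.8 to 78.5) the Olig2 midpoint fell in a space between H3K27Ac peaks. Such spaces made up a median of 15.5% of the span over all 169 regions, and their share in the 18 alone is not given here. Whether the midpoints favoured the spaces was not tested. In shared regions of 2 or 3 vehicle peaks and up to 2.5 kb, the midpoint fell in a space in 24.2% (20.98 to 27.6) of 679, and spaces made up a median of 8.56% of the span. The Olig2 peak covered a space in 77.8% (52.4 to 93.6) of the 18 and in 89.7% (87.2 to 91.9) of the 679.

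Vehicle-only regions were found on all 20 autosomes. They made up from 9.13% (7.18 to 11.4) of the joined regions on chromosome 12 to 12.8% (10.7 to 15.0) on chromosome 15. The share that was isolated ran from 40.1% (33.0 to 47.5) on chromosome 10 to 60.9% (50.1 to 70.9) on chromosome 16. LPC-only regions outnumbered vehicle-only ones on every autosome, by a ratio from 1.46 on chromosome 15 to 2.22 on chromosome 18.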

How the data were processed

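Each of the 4 libraries has 1 deposited peak list (chromosome, start, end; no score or count). The submitters' processing notes name MACS 1.4.2 and build rn4. No source used here gives the aligner, control, threshold or depth. Coordinates are 1-based on rn4. The gene and promoter tables at hand are on another assembly and were not used, so no gene or sequence is given.

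Lists were joined and compared in Python 3.11.15 with pandas 2.3.3, numpy 2.4.6 and SciPy 1.17.1. The counts of regions, vehicle-only regions, near regions and regions with Olig2 differed by 0 from bedtools 2.31.1. On simulated lists the code found 100% of 3103 regions made vehicle-only. Olig2 was counted on a region from 1 bp of overlap. Clopper-Pearson (exact binomial) limits were used for shares and Newcombe limits for differences. Differences by length use 5 bins unless stated, weighted by the first-named group, with a normal interval. No p-value was computed, since each group is 1 library.

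The members, comparisons and naming rule were chosen with earlier results of these data known. Named were the 5 longest near and isolated regions, the 5 of most peaks, the 5 longest with Olig2 in both or in vehicle alone, those with LPC Olig2 alone, the 3 closest to the joining limit, and the 5 largest runs of isolated regions. Alternatives changed the joining distance, the neighbour distance, the peak and region lengths, the chromosomes and the Olig2 overlap.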

Additional observations from a re-analysis of the deposited data

Results flagged for a closer look

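The X chromosome was outside the comparisons and also held vehicle-only regions. They made up 44 of 660 joined regions on X (6.67%, 4.89 to 8.85), and 11.1% (10.8 to 11.49) of the joined regions on the autosomes. Of the 44, 30 (68.2%) were isolated and 1 carried a vehicle Olig2 peak (2.27%, 0.0575 to 12.02). Of the autosomal vehicle-only regions 53.1% were isolated and 6.30% carried vehicle Olig2. X held 173 LPC-only regions among its 660 joined regions, and the autosomes 5807 among 29950 (19.4%).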

How the results depend on the processing

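Of 92 recomputed differences, 76 kept their direction and whether their interval held 0. Of 49 recomputed counts, shares and medians, 30 stayed close to the reported value (within 1.5 times for counts, and within the reported interval or quartiles otherwise). Joining only peaks that overlap or touch gave 5628 vehicle-only regions, limiting the vehicle list to peaks at or above its median length gave 456, and a minimum span of 500 bp gave 1526. The isolated share was 48.6% and 58.5% with joining within 500 bp and 2 kb, 33.3% when only touching peaks were joined, 47.1% with the longer vehicle peaks, 50.3% with the minimum span, and 75.6% and 35.8% with neighbour distances of 5 and 25 kb. Vehicle Olig2 lay on 10.3% with the longer vehicle peaks, 7.60% with the minimum span and 2.55% with 50% of the Olig2 peak inside. For LPC Olig2 these were 6.36%, 4.91% and 1.65%.

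The difference from shared regions by length was -0.518 points with the longer vehicle peaks, -0.642 with the minimum span, -0.919 with Olig2 midpoints within 1 kb of the region's midpoint, -0.640 with 10 bins, -1.53 with bins of span and -0.632 in the 4 shorter bins, and its interval then held 0. Isolated minus near was 4.26 points with the longer vehicle peaks and 0.942 with 50% of the Olig2 peak inside (LPC Olig2, 2.93 and 0.695). Vehicle-only minus LPC-only was 0.294 with the latter (LPC Olig2, 0.186). The kept share was then 52.9% and its difference from shared regions -12.0 points. That difference changed sign, to 0.167 points, when kept meant a reciprocal overlap of 50%. In shared regions the difference between those alone and the others changed sign within bins of span, to 0.191 points with 5 bins and 0.439 with 10. The 50% rule leaves out short regions by construction, and the longer peaks leave fewer regions. The cause of the other shifts was not tested.

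The bins of span, the 4 shorter bins, the differences by length for isolated minus near, for vehicle-only minus LPC-only, for near or isolated minus shared and for regions that were alone, and all settings for LPC Olig2 were added after seeing the data. Leaving out a replicate was not possible. No paired analysis was possible because each group is 1 library. Depth was unknown, so a peak under the threshold cannot be told from no peak.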

Other observations

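Isolated vehicle-only regions rarely followed each other. Joined at most 12.5 kb from one to the next, the 1772 regions formed 1713 runs, of which 1660 held 1 region, 47 held 2 and 6 held 3. The longest runs of 3 lay on chromosome 2 (107643174 to 107663730, 20.6 kb), chromosome 20 (8466962 to 8483691, 16.7 kb), chromosome 8 (20782992 to 20796521, 13.5 kb), chromosome 3 (88522508 to 88531176, 8.67 kb) and chromosome 2 again (40945246 to 40952019, 6.77 kb). Vehicle H3K27Ac peaks covered from 8.30% of the chromosome 8 run to 23.3% of the second chromosome 2 run. None of the vehicle-only regions in these 5 runs overlapped an Olig2 peak of either condition.

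In 398 of the 20809 shared regions (1.91%) no vehicle peak overlapped an LPC peak, and the region was shared only through joining within 1 kb.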
